A study of Mus musculus with 6 samples.

Results

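The integrated stress response genes described here are the transcription factor gene Atf4, its relatives Atf5 and Ddit3, and 7 genes known as their targets or as parts of the same response, namely Asns, Trib3, Chac1, Psat1, Phgdh, Sesn2 and Herpud1. They were chosen by gene symbol, and all 10 were found among the 23284 genes counted in each library. Liver RNA was sequenced from 3 homozygous Trim24 knockout (Trim24 -/-, KO) and 3 wild type (WT) samples of mice of the C57BL6/J strain at 8 weeks of age, and the labels give no treatment. The labels say neither how the Trim24 allele was made nor whether deletion was restricted to a cell type, and they do not say that replicates came from separate mice, so p-values refer to the variation among these 6 libraries, which may be technical. TRIM24 is a cofactor of nuclear receptors, and the title of the series concerns fat accumulation and cancer of the liver. Of these genes 4 had enough reads for the test over all genes, and 1 of the 4, Asns, was higher in the KO livers. The messages of Atf4 and Atf5 themselves and of Herpud1 did not pass the test. Of all 9180 tested genes 3.08% were higher and 2.65% lower in KO. Chac1 and Trib3 had lower normalised read counts in every KO library than in any WT library. Both had too few reads for the test over all genes, and how many of all genes separate in this way was not counted.

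In the integrated stress response, kinases that sense amino acid shortage, misfolded proteins in the endoplasmic reticulum, double-stranded RNA or lack of heme phosphorylate the translation factor eIF2alpha. General translation then slows, while translation of Atf4 mRNA increases through upstream open reading frames in its leader, so the response acts on ATF4 protein as well as on its message. ATF4 binds, with C/EBP family partners, to composite elements in the promoters of genes for amino acid synthesis and uptake, redox balance and feedback control. In liver this response is known for adapting hepatocytes to dietary amino acid supply and to a high load of secreted protein.

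The promoters of 4 of the 10 genes hold the core of the C/EBP-ATF response element in the window from 250 bases before to 50 bases after the transcription start, and they are shown because the values of these 4 genes differed in direction. All 10 genes matched a RefSeq promoter (build GRCm38.p6), with 12 windows among them because Atf5 and Psat1 each have a pair of start sites. The letters searched were TGATGNAA for the C/EBP-ATF element, ATTGG and CCACG with 1 free base between them for ER stress element II, and CCAAT and CCACG with 9 free bases between them for the ER stress element, on both strands. Capitals mark the matches.
Asns, chr6:7693160-7693459, minus strand: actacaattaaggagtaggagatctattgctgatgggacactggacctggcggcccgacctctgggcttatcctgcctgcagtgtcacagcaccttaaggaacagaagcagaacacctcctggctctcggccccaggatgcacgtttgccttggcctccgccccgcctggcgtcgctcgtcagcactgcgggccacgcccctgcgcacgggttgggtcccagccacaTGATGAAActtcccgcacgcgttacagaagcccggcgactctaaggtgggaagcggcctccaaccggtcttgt
Chac1, chr2:119350992-119351291, plus strand: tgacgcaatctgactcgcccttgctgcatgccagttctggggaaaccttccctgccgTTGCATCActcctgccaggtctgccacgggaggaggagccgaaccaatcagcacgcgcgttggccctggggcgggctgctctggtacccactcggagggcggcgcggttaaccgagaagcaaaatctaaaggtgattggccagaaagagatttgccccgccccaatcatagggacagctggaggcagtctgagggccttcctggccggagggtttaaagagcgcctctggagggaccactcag
Trib3, chr2:152344011-152344310, minus strand: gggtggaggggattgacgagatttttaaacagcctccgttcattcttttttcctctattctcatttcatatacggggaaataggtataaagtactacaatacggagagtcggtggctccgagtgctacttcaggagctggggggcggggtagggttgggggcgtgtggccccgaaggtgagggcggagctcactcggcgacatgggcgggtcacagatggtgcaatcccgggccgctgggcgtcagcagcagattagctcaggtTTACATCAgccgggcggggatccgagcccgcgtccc
Herpud1, chr8:94386179-94386478, plus strand: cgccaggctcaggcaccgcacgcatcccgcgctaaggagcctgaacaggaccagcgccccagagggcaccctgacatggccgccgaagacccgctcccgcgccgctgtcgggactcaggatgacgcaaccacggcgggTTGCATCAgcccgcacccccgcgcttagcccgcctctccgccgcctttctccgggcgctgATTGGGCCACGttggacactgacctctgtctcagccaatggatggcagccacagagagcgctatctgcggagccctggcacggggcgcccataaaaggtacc
The Asns match, TGATGAAA, lies on the gene's own strand and begins 23 bases before the start. In Chac1 and Herpud1 the letters are TGATGCAA read on the opposite strand, 193 and 112 bases before the start. The Trib3 match, TGATGTAA, is also on the opposite strand and begins 14 bases after the start. Herpud1 also holds ATTGGGCCACG, ER stress element II, 52 bases before the start, and the 2 motifs do not overlap. The ER stress element was found in 0 of the 10 genes. Of all 32851 promoter windows of the same length, 3.97% hold the C/EBP-ATF core, 0.0365% ER stress element II and 0.119% the ER stress element. These matches are a description of the letters in the windows and not of binding.

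Reads counted in genes came to 1607276 to 2872421 in the KO libraries and to 1495583 to 1732309 in the WT libraries. Expression is given as CPM, read counts scaled to the reads in tested genes and to the TMM factor of each library. Values of single libraries stand in the order of replicate number, KO1 to KO3 and WT1 to WT3. A gene with no read could still have up to 3 counts, which correspond to 1.04 to 1.86 CPM in the KO libraries and 1.78 to 2.10 CPM in the WT libraries. This limit covers counting error only. Trim24 itself was at 1.21 ± 0.591 CPM in KO and 25.8 ± 4.06 CPM in WT livers (SD, n = 3 each; log2 fold change -4.46, SE 0.39, edgeR adjusted p = 2.1e-05). The hepatocyte gene Alb was at 50809 to 77978 CPM in KO and 75346 to 88939 CPM in WT libraries, and all 12 listed hepatocyte markers were detected. The call threshold was an adjusted p of 0.05 (Benjamini-Hochberg) in edgeR's quasi-likelihood test of the 9180 genes that passed a filter on low counts, and 283 were higher and 243 lower in KO, or 3.08% and 2.65%. Of the 10 stress response genes, 4 passed the filter (Atf4, Atf5, Asns and Herpud1), and 1 of these was called higher and 0 lower. The median log2 fold change of these 4 was -0.11, against 0.01 over all tested genes. With no filter all 10 could be tested among 16989 genes, of which 3.39% were called higher and 3.0% lower. Asns was then called higher and Chac1 lower.

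**Figure D1:**
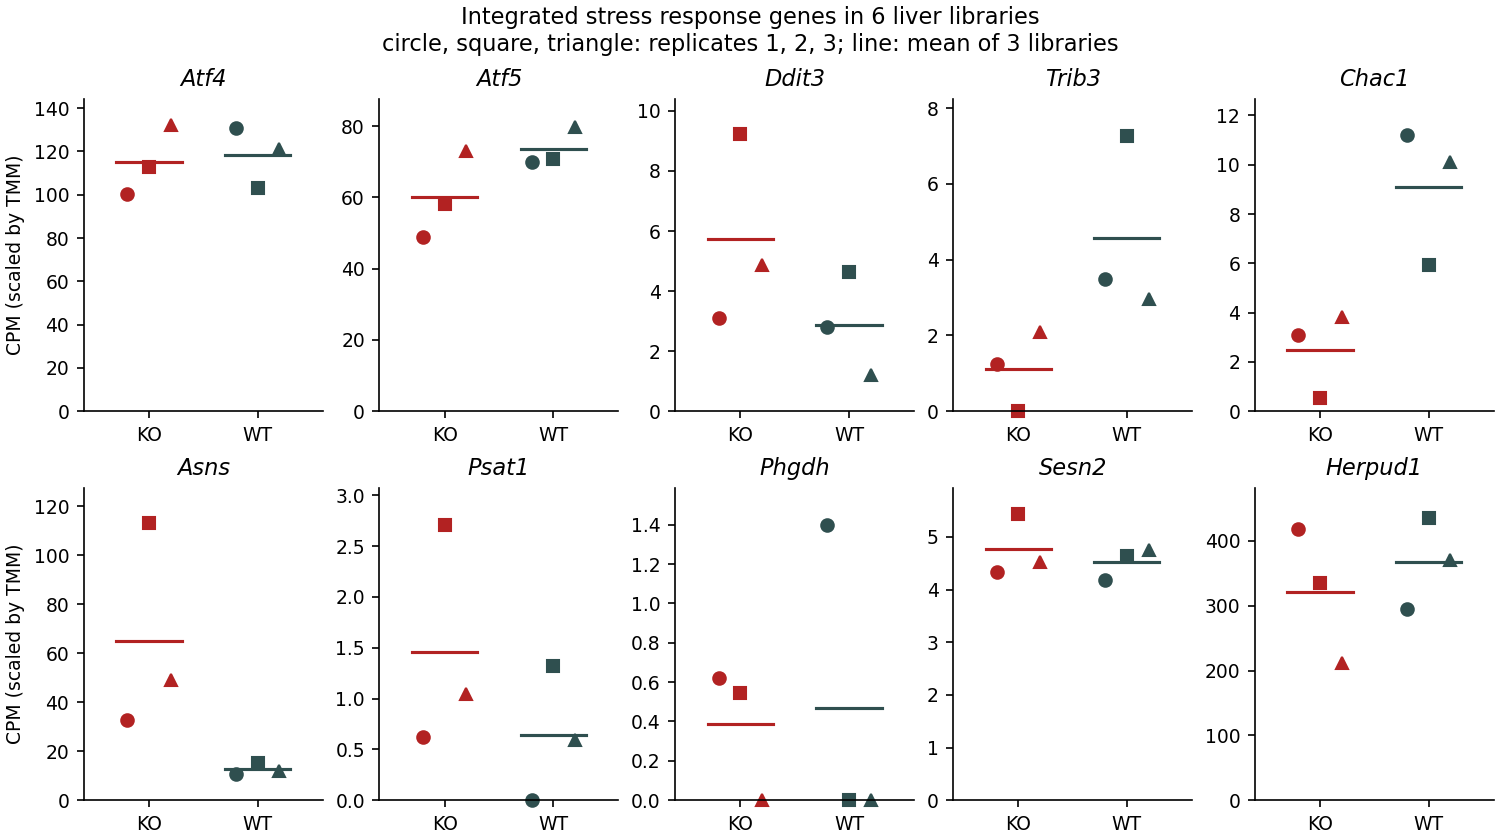
CPM of the 10 stress response genes in each of the 3 KO and 3 WT libraries, on linear axes that start at 0, with a line at each group's mean and a marker shape for each replicate number. The Asns values of KO lie above those of WT, the Chac1 and Trib3 values of KO lie below those of WT, and the groups overlap for the other genes. The share of all genes with separate groups was not counted.

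Atf4, the transcription factor at the centre of the response, had 100.3, 113 and 132 CPM in the KO libraries, against 131, 103 and 121 CPM in the WT libraries. The groups overlapped throughout their range. The mean was 115 ± 15.8 CPM in KO and 118 ± 14.6 CPM in WT (SD, n = 3 each). The log2 fold change was -0.03 (SE 0.16, edgeR adjusted p = 0.95) and turned to 0.05 without KO1 or WT1. Atf5, a related factor that is likewise controlled through upstream open reading frames, had 48.9, 58.1 and 73.1 CPM in the KO libraries, against 69.9, 70.8 and 79.6 CPM in the WT libraries. KO1 and KO2 were below every WT library and KO3 was within their range. Its log2 fold change of -0.28 (SE 0.17) did not pass the test (edgeR adjusted p = 0.41). In the GENCODE annotation 82 exon bases of Atf5 are shared with each of Il4i1 and Nup62 on the opposite strand. Whether the counting used strand is not stated, so reads in those bases cannot be told apart.

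Ddit3 encodes CHOP, a partner of ATF4 that is tied to cell death under prolonged ER stress. It had 5, 17 and 14 counts in the KO libraries and 4, 7 and 2 counts in the WT libraries, which is 5.73 ± 3.15 CPM in KO and 2.87 ± 1.72 CPM in WT (SD, n = 3 each). KO2 and KO3 were above all WT libraries, KO1 was below WT2, and the gene did not pass the filter. Without the filter its log2 fold change was 0.98 (SE 0.53, edgeR adjusted p = 0.37). Exons of Ddit3 share 68 bases with Mars on the opposite strand.

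Asns encodes asparagine synthetase, which makes asparagine from aspartate and glutamine and is a standard readout of the amino acid response. It had 53, 208 and 141 counts in the KO libraries, against 15, 23 and 20 in the WT libraries. On the CPM scale these were 32.8, 113 and 49.1 in the KO libraries and 10.5, 15.2 and 11.9 in the WT libraries. The lowest KO library was 2.16 times the highest WT library, and within KO the values ranged 3.44-fold, with KO2 the highest. The mean rose to 64.9 ± 42.3 CPM in KO, against 12.5 ± 2.43 CPM in WT (SD, n = 3 each). This was a 5.15-fold difference (log2 fold change 2.36, SE 0.41, edgeR adjusted p = 0.0042). Asns had rank 50 by fold among the 283 genes called higher. Its size depended on KO2: the log2 fold change was 1.73 without KO2 (SE 0.27, edgeR adjusted p = 0.0032) and 3.16 with KO2 as the only KO library (SE 0.25, edgeR adjusted p = 6.3e-06), a fit that assumes that the lone library varies like the WT libraries.

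**Figure D2:**
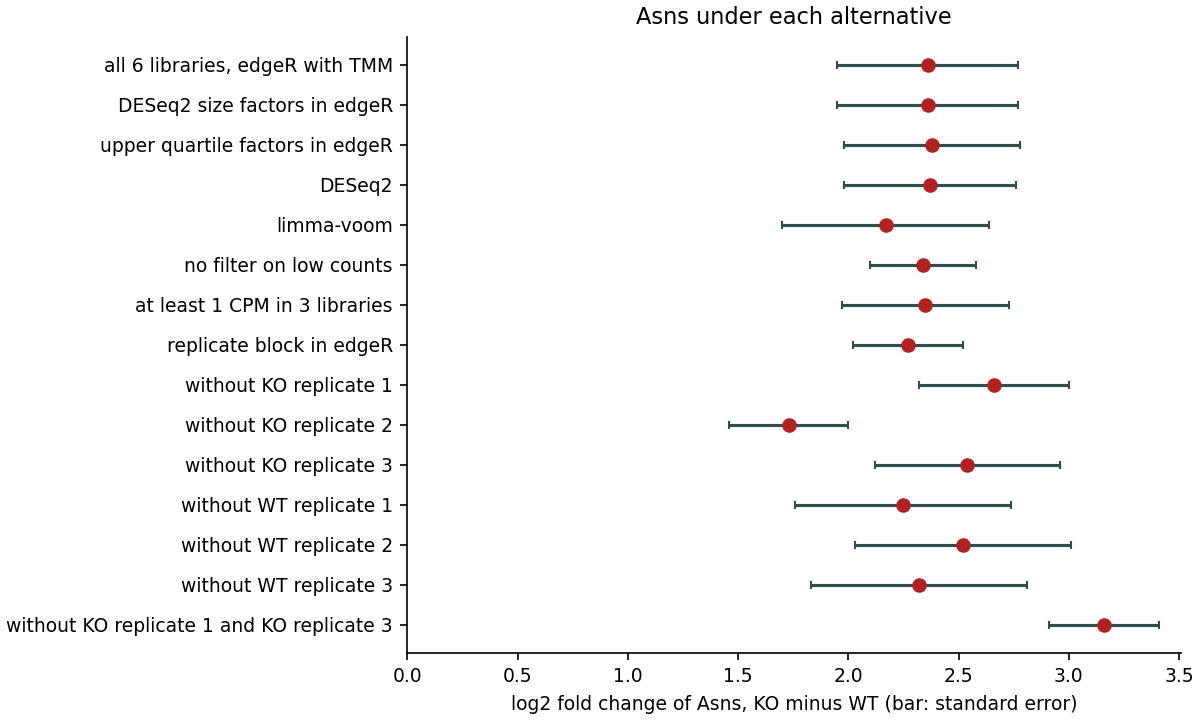
Log2 fold change of Asns, KO minus WT, with its standard error, for the main edgeR fit and each alternative scaling, test, filter, block and set of libraries. All points lie between 1.73 and 3.16, with the lowest point without KO replicate 2 and the highest with KO replicates 1 and 3 both left out.

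Chac1 and Trib3 are ATF4 targets with roles apart from amino acid synthesis. Chac1 encodes an enzyme that breaks down glutathione. It had 5, 1 and 11 counts in the KO libraries, against 16, 9 and 17 in the WT libraries, or 3.10, 0.543 and 3.83 CPM in KO and 11.2, 5.95 and 10.1 CPM in WT. The groups did not overlap, and KO2, the highest library for Asns, was the lowest for Chac1. Chac1 did not pass the filter. Tested without it, Chac1 was called lower, with a log2 fold change of -1.78 (SE 0.47, edgeR adjusted p = 0.0047). With a filter of at least 1 CPM in 3 libraries the log2 fold change was -1.77 and the call was not made (edgeR adjusted p = 0.058), and over the 7 fits that tested Chac1 adjusted p was 0.0047 to 0.16. Without KO2 its log2 fold change was -1.34 (edgeR adjusted p = 0.16), and with KO2 as the only KO library it was -3.89 and called lower (edgeR adjusted p = 0.030).

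Trib3 encodes a pseudokinase that binds AKT and ATF4 and acts as a feedback inhibitor of the response. It had 2, 0 and 6 counts in the KO libraries, against 5, 11 and 5 in the WT libraries, a mean of 1.11 ± 1.05 CPM in KO and 4.58 ± 2.35 CPM in WT (SD, n = 3 each). The groups did not overlap on the CPM scale, and KO2 had no read, which allows up to 1.63 CPM there. The gene did not pass the filter. Without it the log2 fold change was -1.85 (SE 0.69) and did not pass the test (edgeR adjusted p = 0.091).

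The serine synthesis genes were close to the limit of detection. Phgdh, which encodes the first enzyme of serine synthesis from glycolysis, had 1, 1 and 0 counts in the KO libraries and 2, 0 and 0 in the WT libraries. Psat1, which encodes the transaminase of the following step, had 1, 5 and 3 counts in the KO libraries and 0, 2 and 1 in the WT libraries. A difference in either gene was not detectable with so few reads counted in genes. Tested without the filter neither was called (edgeR adjusted p = 0.94 for Phgdh and 0.71 for Psat1). Sesn2 encodes a leucine-binding inhibitor of mTORC1 signalling that p53 also induces. It had 4.33, 5.43 and 4.52 CPM in the KO libraries, against 4.19, 4.63 and 4.75 CPM in the WT libraries. The values were within a narrow range in both groups, and without the filter the log2 fold change was 0.05 (SE 0.50, edgeR adjusted p = 0.97).

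Herpud1 encodes a membrane protein of the machinery that removes misfolded proteins from the endoplasmic reticulum, and it responds to ATF6 and XBP1 as well as to ATF4. It had 418, 335 and 212 CPM in the KO libraries, against 295, 435 and 370 CPM in the WT libraries. KO3 was the lowest of the 6 libraries and KO1 was second to WT2. The log2 fold change was -0.19 (SE 0.23, edgeR adjusted p = 0.69) and turned to 0.04 without KO3.

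Per kilobase of exon, with lengths from GENCODE M21, the order of levels was led by Herpud1, at 138 ± 44.4 in KO and 157 ± 30.1 CPM per kilobase in WT. Atf4 followed at 48.9 ± 6.72 in KO and 50.1 ± 6.17 CPM per kilobase in WT, and Atf5 at 30.1 ± 6.11 in KO and 36.8 ± 2.69 CPM per kilobase in WT (SD, n = 3 each). In WT livers Chac1 (5.54 ± 1.68 CPM per kilobase) and Asns (4.58 ± 0.889) came next and lay within their spread of each other. In KO livers Asns stood at 23.7 ± 15.5 CPM per kilobase, with a spread that included the Atf5 mean, and Chac1 at 1.52 ± 1.05. The other 5 genes were at 0.156 to 3.35 CPM per kilobase in KO and 0.15 to 2.15 CPM per kilobase in WT.

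The rest of the pathway was read from 4 lists of genes. Of 14 genes for the eIF2alpha kinases, eIF2 and its exchange factor, the phosphatase subunits and ATF4 partners, 12 were tested. Of the 12, 1 rose and 0 fell, beside 3.08% and 2.65% of all 9180 tested genes. The median log2 fold change was 0.15. The change was positive for 8 and negative for 4, beside 4666 and 4514 of all tested genes. Unadjusted edgeR p was under 0.05 for 5 of the 12, beside 1864 of all 9180. The gene that rose was Eif2ak2, which encodes PKR, the kinase that senses double-stranded RNA and is itself induced by interferon. It had 19.2, 44.5 and 36.2 CPM in the KO libraries, against 14.7, 16.5 and 14.8 CPM in the WT libraries (log2 fold change 1.13, SE 0.29, edgeR adjusted p = 0.038). Its exons share 174 bases with Gm26637 and 47 with an rRNA gene, both on the opposite strand. All KO libraries were above all WT libraries, but the call was lost without KO2, KO3, WT1, WT2 or WT3 (edgeR adjusted p = 0.096 to 0.14) and with limma-voom (adjusted p = 0.073). The genes of the other 3 kinases did not pass, with edgeR adjusted p = 0.14 for Eif2ak3 (PERK, the ER stress kinase), 0.53 for Eif2ak4 (GCN2, the amino acid sensor) and 0.73 for Eif2ak1 (HRI, the heme sensor). With KO2 as the only KO library Eif2ak3 was called higher (log2 fold change 1.15, edgeR adjusted p = 0.027). The largest change among the 12 was that of Impact, whose product binds GCN1 and restrains GCN2. It had 9.91, 23.9 and 22.3 CPM in the KO libraries, against 6.99, 5.95 and 10.7 CPM in the WT libraries, so KO1 was below WT3. Its log2 fold change of 1.25 (SE 0.36) did not pass the test (edgeR adjusted p = 0.061), and it was called higher without the filter (0.0033), with the replicate block (0.047), without KO1 (0.0087) and with KO2 as the only KO library (0.026). Impact and the genes of these 3 kinases are named outside the rule for named genes and were chosen after their values were seen.

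Of 22 other ATF4 targets, 8 were tested, and 0 rose and 0 fell by edgeR, with a median log2 fold change of -0.11. An unadjusted edgeR p under 0.05 was found for 2 of the 8, beside 1864 of all 9180 tested genes. With DESeq2 1 of the 8 was called lower, beside 263 of all 9180. The most abundant were Gpt2, which encodes a mitochondrial alanine transaminase, and Cth, which encodes cystathionine gamma-lyase of cysteine synthesis. Gpt2 had 350, 331 and 251 CPM in the KO libraries, against 392, 495 and 559 CPM in the WT libraries, so all KO libraries were below all WT libraries (log2 fold change -0.64, SE 0.18). Its edgeR adjusted p was 0.057, and it was called lower with DESeq2 (adjusted p = 0.023), without the filter (0.0059) and without KO1 (0.041). Cth, at 302 ± 32.4 CPM in KO and 325 ± 79.2 CPM in WT (SD, n = 3 each), had a log2 fold change of -0.10 (SE 0.19, edgeR adjusted p = 0.81).

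Genes of aminoacyl-tRNA synthetases, which charge tRNAs and are induced by ATF4, and the tRNA exporter gene Xpot made up 14 tested genes. By edgeR 0 rose and 0 fell, and the median log2 fold change was 0.19. An unadjusted edgeR p under 0.05 was found for 5 of the 14, beside 1864 of all 9180 tested genes. The change was positive for 9 and negative for 5, beside 4666 and 4514 of all tested genes. DESeq2 called 1 of the 14 higher, beside 260 of all 9180. Aars, the gene of the alanyl-tRNA synthetase, had 301, 408 and 435 CPM in the KO libraries, against 277, 233 and 235 CPM in the WT libraries. Its groups did not overlap, its edgeR adjusted p was 0.052 (log2 fold change 0.62, SE 0.17), and it was called with DESeq2 (adjusted p = 0.026), with upper quartile factors (0.045), without the filter (0.017) and without KO1 (0.015). Aars shares 1326 exon bases with Exosc6 on the same strand. Eprs, for the glutamyl-prolyl-tRNA synthetase, had 445 ± 31.2 CPM in KO and 332 ± 38.7 CPM in WT (SD, n = 3 each; log2 fold change 0.42, SE 0.15, edgeR adjusted p = 0.13).

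The ATF6 and XBP1 arm of the unfolded protein response, which raises ER chaperones and disulfide isomerases, held more calls. Of its 22 tested genes 6 rose and 0 fell, beside 3.08% and 2.65% of all 9180 tested genes. The median log2 fold change was 0.53. The change was positive for 19 and negative for 3, beside 4666 and 4514 of all tested genes. Unadjusted edgeR p was under 0.05 for 13 of the 22, beside 1864 of all 9180. Creld2, an ER stress-induced disulfide isomerase gene, rose to 65.2 ± 15.0 CPM in KO, against 18.1 ± 8.32 CPM in WT (SD, n = 3 each; log2 fold change 1.86, SE 0.29, edgeR adjusted p = 0.0020). The others with the smallest p were Manf, Pdia6 and Dnajb11, with log2 fold changes of 1.11, 0.93 and 0.84. Manf shares 14 exon bases with Rbm15b on the same strand, and 146 with Dcaf1 and 166 with 4930524O07Rik on the opposite strand. Pdia6 shares 50 exon bases with Atp6v1c2 on the opposite strand, and the call of Dnajb11 was lost without WT1, without WT2 and with KO2 as the only KO library. Without WT2, 3 of the 22 were called higher, beside 171 of all 9610 genes tested in that fit. Herpud1, which this arm also drives, was not among the genes that rose. The difference between these lists was not tested.

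**Figure D3:**
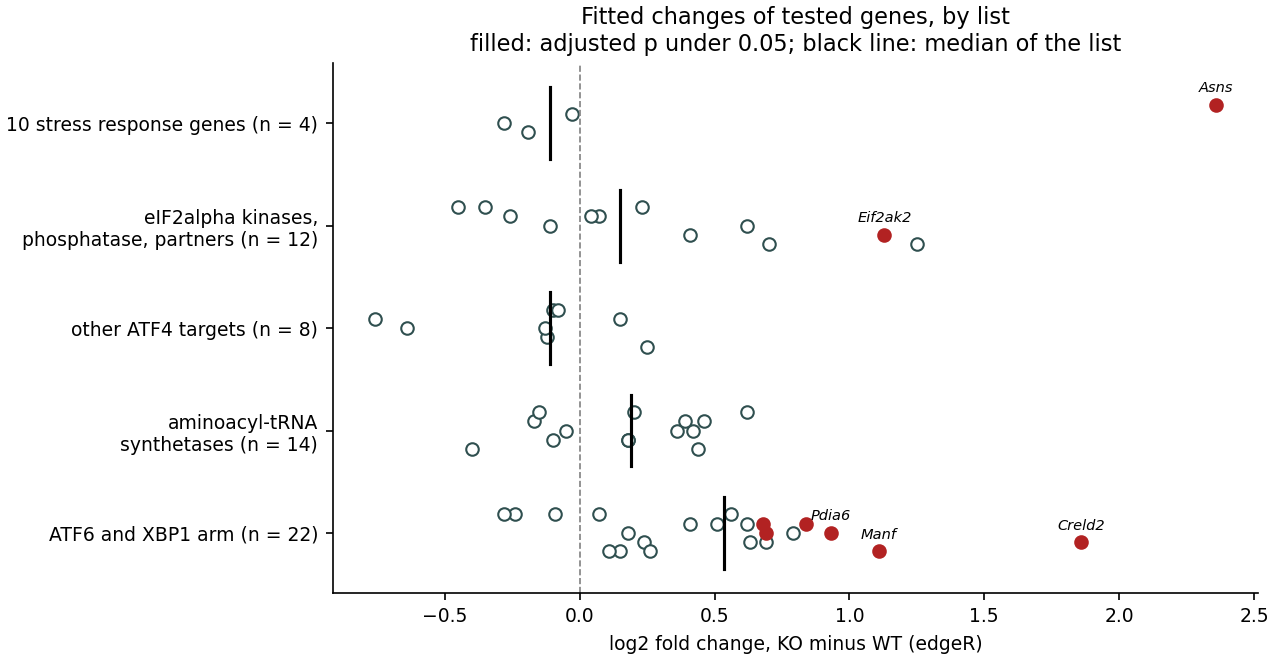
Log2 fold change, KO minus WT, of each tested gene in the 10 stress response genes and the 4 other lists, with filled points for genes with an edgeR adjusted p under 0.05 and a black line at each list's median. Asns, at 2.36, stands apart from the other 3 tested stress response genes, which lie between -0.28 and -0.03.

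Transcripts of other cell types differed between the libraries. The 24 listed pancreatic acinar markers summed to 1086, 15.2 and 706 CPM in the KO libraries, against 39.8, 15.9 and 12.5 CPM in the WT libraries, and 3 of the 24 had no read in any library. The trypsinogen gene Prss2 had 246, 1 and 266 counts in the KO libraries and 6, 1 and 0 in the WT libraries. In KO2, the highest library for Asns, the acinar sum was within the range of WT. The 15 Kupffer cell and macrophage markers summed to 429, 784 and 774 CPM in the KO libraries, against 265, 493 and 382 CPM in the WT libraries, and none of the 15 was at 0 in every library. Of 14 tested markers 3 rose and 0 fell, beside 3.08% higher and 2.65% lower among all 9180 tested genes. The change was positive for 13 and negative for 1, with a median log2 fold change of 0.8, against 0.01 over all tested genes. Mpeg1, a macrophage perforin-like gene and the marker with the highest CPM in a library, had 48.9, 129 and 74.8 CPM in the KO libraries and 30.7, 43.6 and 24.3 CPM in the WT libraries. The 12 hepatocyte markers summed to 102810, 73623 and 103020 CPM in the KO libraries and 121817, 111374 and 120550 CPM in the WT libraries, with none at 0. Of these 12, 2 fell and 0 rose, beside 2.65% and 3.08% of all 9180 tested genes. The change was negative for all 12, with a median log2 fold change of -0.36. The part of these cells in the Asns difference was not tested, and in bulk liver a change in the number of cells of a type and in RNA per cell cannot be told apart.

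**Figure D4:**
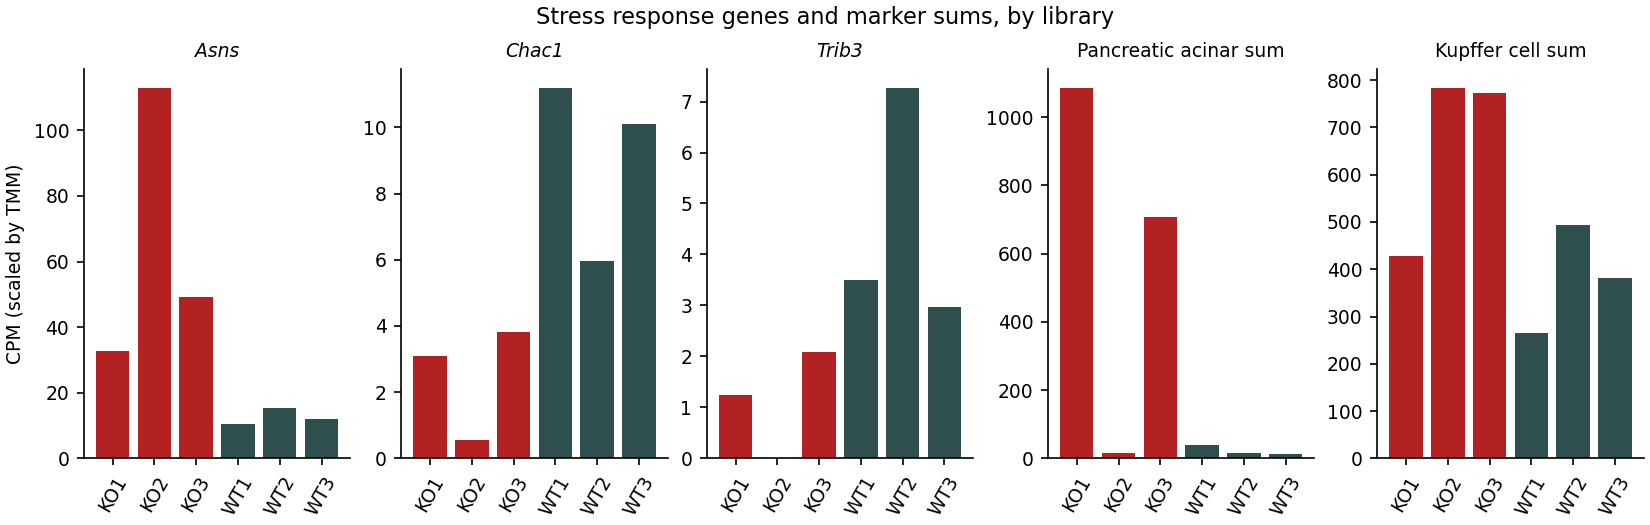
CPM of Asns, Chac1 and Trib3 and the summed CPM of pancreatic acinar and of Kupffer cell markers in the 3 KO (red) and 3 WT (dark grey) libraries, on linear axes that start at 0. KO2 has the highest Asns (113 CPM), the lowest Chac1 (0.543 CPM) and no Trib3 read, with an acinar sum of 15.2 CPM.

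The genes most like Asns over the 6 libraries were found by the root mean square difference between profiles of log2(CPM + 1), each centred on its own mean, among 7733 other tested genes with a mean of at least 10 CPM. The smallest differences were those of Ifit1 (0.28), Ifi44 (0.31), Ccl6 (0.34), Gas6 (0.36) and Ifit3 (0.36), against a median of 1.20 over the genes compared. Profiles were not scaled, so the measure picks genes whose KO and WT values differ by about as much as those of Asns. A gene with no change scores the spread of Asns itself, so the median is no benchmark of likeness. Ifit1 had 14.9, 49.4 and 35.1 CPM in the KO libraries and 6.99, 9.92 and 5.94 CPM in the WT libraries.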

How the data were processed

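RNA of homogenized liver was isolated with TRIzol and sequenced on the Illumina platform, per the labels' protocols. The authors deposited raw read counts per gene symbol for each library. The tools listed in the submitters' processing notes are HTSeq, edgeR and TopHat 1.4.1, with mm9 as the build and no roles given. The annotation and strand setting are not given in the sources used here. Between 93.3% and 95.8% of counted reads fell in no gene and 0.0130% to 0.0213% were ambiguous, and both were left out. Libraries were grouped by the labels.

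The test was that of edgeR 4.0.16 under R 4.3.3 (quasi-likelihood F test, TMM factors, group as the only term) after filterByExpr with a minimum count of 10, with Benjamini-Hochberg adjustment over all tested genes and a threshold of 0.05. Log2 fold changes are KO minus WT, and standard errors were derived from the F statistic. CPM used the reads in tested genes times the TMM factor. DESeq2 1.42.0 and limma 3.58.1 (voom) were alternatives, with other scalings, filters, a replicate block and left-out libraries. The test was checked on simulated counts. The 10 genes and all lists were chosen with earlier results of these data known. Named genes were the 10, Trim24, up to 4 called genes of each pathway list by smallest p (or its 2 most abundant where none was called), the 5 most like Asns, and the gene of each marker list with the highest CPM in any library. Exon lengths and overlaps came from GENCODE M21 and promoters from RefSeq, both on GRCm38 and not mm9. They were matched to the counts by gene name and not by coordinate. The lengths and overlaps may therefore differ from those of the annotation used for counting.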

Additional observations from a re-analysis of the deposited data

How the results depend on the processing

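Asns was called higher under all 15 alternatives (log2 fold change 1.73 to 3.16, edgeR, DESeq2 or limma adjusted p up to 0.031), and Atf4, Atf5 and Herpud1 were called under none of the 15. Of the 15, 1 is the main fit with the threshold loosened to 0.1, which had to keep the Asns call. Leaving out 1 library gave 1.73 to 2.66 for Asns, -0.14 to 0.05 for Atf4, -0.46 to -0.16 for Atf5 and -0.43 to 0.04 for Herpud1, and turned the sign of Atf4 (0.05 without KO1, 0.05 without WT1) and Herpud1 (0.04 without KO3). It gave 127 to 409 genes higher and 95 to 363 lower in all. Each such fit tested 4 or 5 of the 10 stress response genes and called 1 of them higher and 0 lower. It gave 0 to 2 genes of the eIF2alpha list higher and 0 to 1 lower, 0 to 1 other ATF4 targets lower, 0 to 1 synthetase genes higher and 3 to 8 genes of the ATF6 and XBP1 arm higher. Cth ranged over -0.28 to 0.07 with 1 library left out (0.07 without WT2) and was 0.01 with KO2 as the only KO library. Without the filter 576 genes were higher and 509 lower, with 1 stress response gene lower (Chac1), 4 of the eIF2alpha list higher, 1 other ATF4 target higher and 2 lower, and 1 synthetase gene higher. At an adjusted p under 0.1, 445 genes were higher and 437 lower, with 3 of the eIF2alpha list higher, 2 other ATF4 targets lower and 1 synthetase gene higher. DESeq2 called 1 other ATF4 target lower and 1 synthetase gene higher, upper quartile factors 1 synthetase gene higher, and limma-voom 0 of the eIF2alpha list. Over all 9180 tested genes these fits called 260, 309 and 234 higher and 263, 225 and 239 lower. With KO2 as the only KO library the log2 fold change was -3.89 for Chac1, 1.53 for Eif2ak2, 1.57 for Impact and 1.15 for Eif2ak3. For these changes the cause was not tested, other than that the filter and the threshold change by construction which genes can be called.

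With the replicate number as a block, 295 genes were higher and 250 lower, 2 of the eIF2alpha list were higher, and Asns stood at 2.27 (edgeR adjusted p = 0.00027). Deviations of same-numbered KO and WT libraries correlated across genes at -0.0732, 0.0781 and 0.0346. KO1 correlated best with WT2 (0.0435) and KO3 with WT1 (0.0883), while KO2 correlated best with its same-numbered WT2. Deviations were centred within each group, so such small values cannot settle whether libraries were paired. The labels state no pairing, and the numbers were not taken as pairs. Ddit3, Trib3, Chac1, Psat1, Phgdh and Sesn2 could not be tested with the main filter. The number of reads counted in genes thus limits what the counts show for 6 of the 10 genes.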

Other observations

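Several further genes of the response had too few reads for the main test and were called only without the filter on low counts, so their calls rest on few reads. Nupr1, a stress-induced chromatin protein gene, had 5, 3 and 5 counts in the KO libraries and 0 in each WT library (edgeR adjusted p = 0.044). With 3 counts over the WT group put in place of 0, Nupr1 was 3.17-fold higher in KO. The KO counts were taken as exact, so this is not a lower limit. Atf3, a stress-induced factor of the ATF family, had 3, 10 and 17 counts in the KO libraries and 1, 2 and 1 in the WT libraries (adjusted p = 0.035). Slc1a4, a neutral amino acid transporter gene, had 5, 8 and 27 counts in the KO libraries and 2, 4 and 2 in the WT libraries (adjusted p = 0.048). Vldlr, the gene of the very low density lipoprotein receptor, had 2, 4 and 5 counts in the KO libraries and 11, 9 and 8 in the WT libraries (adjusted p = 0.037). The stress hormone gene Fgf21 had 0 counts in each KO library and 0, 0 and 1 in the WT libraries, while Stc2 and Bcat1 had no read in any library. These genes were named after their values were seen.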
